A study of Homo sapiens with 58 samples.

Results

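Retinoic acid synthesis, binding and breakdown was followed through 10 genes in human cells moving from the stem cell state towards somites, the segments that later form vertebrae and muscle. The genes were taken by symbol, as enzymes and binding proteins that make, convert or bind retinaldehyde or retinoic acid. All 10 were among the 19084 genes of both deposited tables. RNA was sequenced in 58 libraries of H1, an established human embryonic stem cell line, here wild type. The daily samples, 12 libraries, cover 4 days in triplicate. The other 46 libraries are labelled presomitic mesoderm, the unsegmented tissue that buds off somites. They were taken in duplicate at 23 times between 30 and 690 min.

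Day0 cells were undifferentiated. Day1 cells had been given 100 ng/mL activin A and 3 µM CHIR99021, a Wnt pathway activator, and are named mesendoderm. For Day2, named presomitic mesoderm, the medium held 2 µM A83-01, which blocks activin and nodal receptors, the BMP antagonist NOGGIN at 100 ng/mL, CHIR99021 at 3 µM and FGF2 at 100 ng/mL. For Day3, named somite, it held 1 µM PD0325901 (a MEK inhibitor), 2.5 µM IWR1 (a Wnt inhibitor), 2 µM A83-01 and 100 ng/mL NOGGIN. The labels list no retinoid among these agents, and for the course they leave out both the medium and what 0 min refers to. Whether replicates were separate cultures is not said, so a p here measures no more than the spread among these libraries, possibly a technical one. All the cells belong to 1 line.

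Retinoic acid is a small lipid-like signal made from vitamin A. Retinol is oxidised to retinaldehyde by RDH10, a step that DHRS3 reverses, and retinaldehyde is oxidised to retinoic acid by ALDH1A1, ALDH1A2 and ALDH1A3. CRABP1 and CRABP2 bind retinoic acid inside the cell, and CYP26A1, CYP26B1 and CYP26C1 break it down. In the vertebrate embryo ALDH1A2 makes retinoic acid in the somites and the front of the presomitic mesoderm, while CYP26A1 clears it at the tail end.

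CYP26A1 is known as a gene that retinoic acid itself induces, through receptors that bind paired 6-base half-sites 5 bases apart. The window from 250 bases before to 50 bases after each start site (RefSeq, GRCh38.p14) was searched on both strands for a half-site, spelled AGGTCA, or with the variants AGTTCA and also GGGTCA, or else GGTTCA, then any 5 bases and again any of these half-sites. Such a pair was found in 31 of 35116 windows (0.0883%). Of the 13 windows that matched 9 of the 10 genes (RDH10 had none and was not searched), it was found in 1, that of CYP26A1. The stretch is shown because no other member's window held such a pair, with the half-sites in capitals on the plus strand of chr10:93073797-93073825:

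CYP26A1: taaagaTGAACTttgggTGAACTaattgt

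The pair ends 74 bases before the start site of that window, and GENCODE places it in an untranslated exon of a longer CYP26A1 transcript. Half-sites 1 base or 2 bases apart were found in 46 and 14 of all windows and in none of the members' windows. A match of letters describes the sequence and does not show binding. CYP26C1 is the gene next to CYP26A1 on chromosome 10 in RefSeq order.

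Total counts (M, 1e+06 counts) ran from 3.16 M to 7.81 M a library in the daily series and from 2.53 M to 8.96 M in the course. Levels are counts scaled to a common library total (CPM), and a count of 0 allows up to 3 counts, or 0.384 to 0.949 CPM in a daily library and 0.335 to 1.18 CPM in a course library. Differences were tested with edgeR's quasi-likelihood test, with p adjusted by Benjamini-Hochberg over all genes tested. Between groups a gene was called at an adjusted p under 0.05 with a change of at least 1 on the log2 scale. CYP26C1 had too few counts for either test, so 9 members were tested in each series, and these 9 are not all members. The summed level of 5 mesendoderm markers was 1026 to 1101 CPM at Day1 and 66.1 to 82.8 CPM at Day2, and that of 6 somite markers was 17.4 to 26.3 CPM at Day2 and 558 to 696 CPM at Day3. The sum of 6 presomitic markers did not separate Day2 from Day3, at 226 to 530 and 219 to 282 CPM. Of these, TBX6 and HES7 were low at Day2, at 9.81 to 18.6 and 0.285 to 1.94 CPM, against 44.2 to 74.7 and 9.15 to 21.2 CPM in the course libraries of 30 to 90 min. In bulk RNA, fewer cells of a type and less RNA per cell cannot be told apart.

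Over the 4 days, 7 of the 9 members tested differed between at least some days (adjusted p under 0.05), where 43.6% of all 12765 genes did. ALDH1A1 and DHRS3 were the exceptions (adjusted p = 0.549 and 0.578). The members changed on different days, as the plot of levels by day shows.

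**Figure D1:**
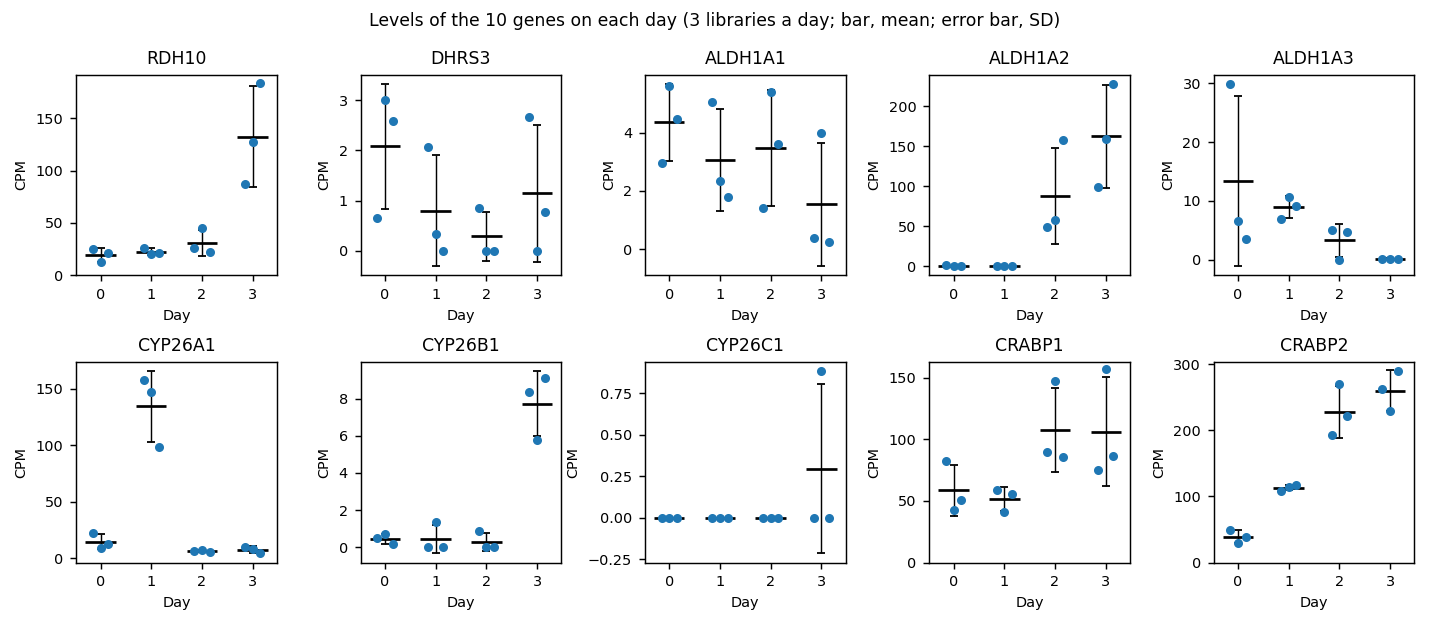
Level in CPM (vertical axis, linear, its own scale in each panel) of each of the 10 genes on Day0 to Day3 (horizontal axis); points are libraries, bars the mean and error bars the SD of 3. CYP26A1 stands out on Day1, ALDH1A2 is present from Day2, and RDH10 and CYP26B1 are highest on Day3.

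ALDH1A2, the main retinoic acid synthesis enzyme of the embryonic trunk, came on at Day2. It was at 0.784, 0.177 and 0.172 CPM in the Day0 libraries, 0, 0.168 and 0.200 CPM at Day1, 48.7, 57.9 and 157 CPM at Day2 and 98.9, 160 and 228 CPM at Day3. Every Day2 and Day3 library lay above every Day0 and Day1 library, and Day2 and Day3 overlapped. With 920 counts at Day2 and 2 counts at Day1, the ratio was 685 (exact 95% counting interval 189 to 5669; adjusted p = 9.45e-07). The change from Day2 to Day3 was 0.65 on the log2 scale (SE 0.37, adjusted p = 0.225) and was not called. Without Day2 replicate 3, the highest of that day, it was 1.30 and was called (adjusted p = 0.0112).

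ALDH1A3, which makes retinoic acid mainly in eye and nasal tissue, went the other way. Its levels were 29.9, 6.53 and 3.61 CPM at Day0, 6.89, 10.6 and 9.20 CPM at Day1, 5.13, 0 and 4.72 CPM at Day2 and 0.190, 0.221 and 0.128 CPM at Day3. At Day0 replicate 1 was far above the other two, and Day2 replicate 2 had no count. ALDH1A3 fell from Day1 to Day3 (ratio of pooled counts 53.3, interval 17.9 to 262, 139 against 3 counts; adjusted p = 0.00257), and Day1 and Day3 did not overlap. Day2 and Day3 did overlap, and that fall (ratio 19.99, interval 6.30 to 102) was called at an adjusted p of 0.0168 but not without Day3 replicate 3 (0.0691), not in a fit of just those 6 libraries (0.122), and not with limma on log2(TPM + 1) or log2(TPM + 0.1), at 0.175 and 0.173.

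ALDH1A1 stayed low. Its levels were 2.95, 5.60 and 4.47 CPM at Day0, 5.05, 2.35 and 1.78 CPM at Day1, 1.42, 5.38 and 3.61 CPM at Day2, and 0.380, 3.98 and 0.256 CPM at Day3, and all days overlapped. No pair of days was called, but without Day3 replicate 2, the highest of that day, ALDH1A1 was called lower at Day3 than at Day2 and Day0 (adjusted p = 0.0343 and 0.0315).

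The leading synthesis gene thus differed between days. Per unit of transcript length (TPM), ALDH1A3 made up 34.7 to 85.4% and ALDH1A1 12.5 to 63.5% of the summed ALDH1A level in the Day0 libraries, with ALDH1A2 at 1.25 to 2.13%. ALDH1A3 led in Day0 replicate 1 (20 against 2.92 TPM) and ALDH1A1 in replicates 2 and 3 (5.75 against 4.53 TPM and 4.47 against 2.44 TPM). At Day2 ALDH1A2 made up 90.0% (87.6 to 94.3% over 3 libraries), and at Day3 98.5% (96.3 to 99.8%). The summed ALDH1A level was 13.6 ± 8.65 TPM at Day0, raised by replicate 1, 8.64 ± 0.729 TPM at Day1, 63.5 ± 44.1 TPM at Day2 and 108 ± 45.6 TPM at Day3 (SD, n = 3).

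RDH10, which oxidises retinol upstream of these enzymes, rose a day later. It was at 25.1, 12.3 and 21.2 CPM at Day0, 25.9, 19.8 and 21.6 CPM at Day1, 25.8, 45.3 and 22.1 CPM at Day2 and 86.9, 127 and 183 CPM at Day3. The first 3 days overlapped and Day3 stood above them all. From Day2 to Day3 RDH10 rose 3.59-fold (log2 1.85, SE 0.33, adjusted p = 0.00118).

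DHRS3, which turns retinaldehyde back into retinol, was scarce throughout, at 0.654, 3.00 and 2.58 CPM at Day0, 2.07, 0.336 and 0 CPM at Day1, 0.855, 0 and 0 CPM at Day2, and 2.66, 0 and 0.768 CPM at Day3. All days overlapped, 4 of the 12 daily libraries had no count, and no change was detectable at this depth.

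Of the breakdown genes, CYP26A1 peaked at Day1. It was at 22.2, 9.18 and 12.2 CPM at Day0, 157, 147 and 98.5 CPM at Day1, 5.99, 7.28 and 5.56 CPM at Day2 and 10.1, 8.09 and 4.10 CPM at Day3. All 3 Day1 libraries lay above every other daily library. CYP26A1 rose 9.33-fold from Day0 to Day1 (log2 3.22, SE 0.36, adjusted p = 2.01e-05) and fell 19.4-fold from Day1 to Day2 (log2 -4.28, SE 0.40, adjusted p = 4.93e-06). From Day2 to Day3 the change was -0.01 (SE 0.40, adjusted p = 0.991). The summed level of 7 endoderm markers was 14.4 to 18.9 CPM at Day0, 380 to 583 CPM at Day1 and 68.3 to 95.2 CPM at Day2. It moved with CYP26A1, as did the mesendoderm sum, and their part in the CYP26A1 values was not tested.

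The lower level of CYP26A1 after Day1 than at Day0 is less firm. Day2 and Day3 were called lower than Day0 (log2 -1.05 and -1.06, adjusted p = 0.0494 and 0.0484), and Day0 replicate 1 was the highest of its day. Without that library the changes were -0.60 and -0.61 (adjusted p = 0.268 and 0.289), and the calls were lost in 12 and 10 of 19 other settings.

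CYP26B1, a second retinoic acid hydroxylase, appeared at Day3. It was at 0.523, 0.706 and 0.172 CPM at Day0, 0, 1.35 and 0 CPM at Day1, 0.855, 0 and 0 CPM at Day2 and 8.35, 5.75 and 9.09 CPM at Day3. Every Day3 library lay above every earlier one. The ratio of Day3 to Day2 was 27.4 (interval 9.20 to 135, 141 against 3 counts; adjusted p = 0.0397). That call was lost (adjusted p = 0.05004 to 0.103) without Day0 replicate 2 or 3, without Day2 replicate 2 or 3, and without any 1 of the Day3 libraries. Against Day1 the adjusted p was 0.0504.

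CYP26C1 had 0 counts in all 9 libraries of Day0 to Day2 and 4 counts at Day3, all in replicate 2 (0.885 CPM). In TPM, CYP26A1 made up 98.3%, 99.9% and 97.9% of the summed CYP26 level on Day0, Day1 and Day2, and 63.0% (49.2 to 72.1%) on Day3, when CYP26B1 made up 33.7%. The summed level was 16.4, 142, 6.60 and 12.0 TPM on the 4 days.

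In mean TPM the genes of the 2 binding proteins were the highest members on each of the 4 days. In CPM, CYP26A1 lay above CRABP1 at Day1. In the first and last course windows CRABP2 led in mean TPM, and ALDH1A2 lay above CRABP1. CRABP2, which carries retinoic acid to its nuclear receptors, was at 49.4, 29.1 and 38.5 CPM at Day0, 109, 115 and 117 CPM at Day1, 193, 270 and 222 CPM at Day2 and 263, 229 and 289 CPM at Day3. Day0, Day1 and Day2 did not overlap, and Day2 and Day3 did. CRABP2 rose 2.95-fold to Day1 (log2 1.56, SE 0.20, adjusted p = 7.33e-05) and 2.23-fold to Day2 (log2 1.16, SE 0.19, adjusted p = 0.000802). On log2(TPM + 1) and log2(TPM + 0.1) in limma the step to Day2 was 0.96 both times, under the limit of 1.

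CRABP1, thought to hold retinoic acid in the cytoplasm and to aid its breakdown, was at 82.2, 42.7 and 50.9 CPM at Day0, 58.5, 40.9 and 55.4 CPM at Day1, 90.1, 147 and 85.8 CPM at Day2 and 75.0, 157 and 86.8 CPM at Day3. All Day2 and Day3 libraries lay above all Day1 libraries. CRABP1 rose 2.32-fold from Day1 to Day2 (log2 1.21, SE 0.31, adjusted p = 0.0132), a call lost without Day1 replicate 2 or Day2 replicate 2 (adjusted p = 0.0734 and 0.0635) and on log2(TPM + 1), where the change was 0.996. From Day2 to Day3 the change of CRABP1 was -0.26 (SE 0.31, adjusted p = 0.579 in edgeR). The neural marker STMN2 was also higher at Day2 than at Day1, at 323 to 558 CPM against 124 to 249 CPM. The 8 neural markers other than NES summed to 348 to 511 CPM at Day1, 666 to 998 CPM at Day2 and 596 to 961 CPM at Day3. With NES the sums were 790 to 944, 1391 to 1701 and 2379 to 2718 CPM. The part of neural cells in the CRABP1 values was not tested for the days.

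Set per length, CRABP1 led at Day0 with 184 ± 62.4 TPM against 89.0 ± 21.5 TPM for CRABP2 (SD, n = 3). From Day1 on CRABP2 led, with 244 ± 10.1 against 153 ± 29.5 TPM at Day1, 478 ± 75.9 against 310 ± 91.0 TPM at Day2 and 559 ± 73.8 against 316 ± 135 TPM at Day3. CRABP2 made up 30.4 to 35.4% of the pair at Day0 and 51.4 to 71.8% on the later days. Below the pair, the order of mean TPM at Day3 was ALDH1A2 (106 ± 45.7) and RDH10 (75.1 ± 29.8), which do not differ beyond their spread, then CYP26A1 (7.77 ± 2.96), CYP26B1 (3.80 ± 0.883), ALDH1A1 (1.46 ± 2.02), DHRS3 (1.38 ± 1.62), CYP26C1 (0.427 ± 0.739) and ALDH1A3 (0.110 ± 0.0300). The plot of summed family levels shows these changes in make-up.

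**Figure D2:**
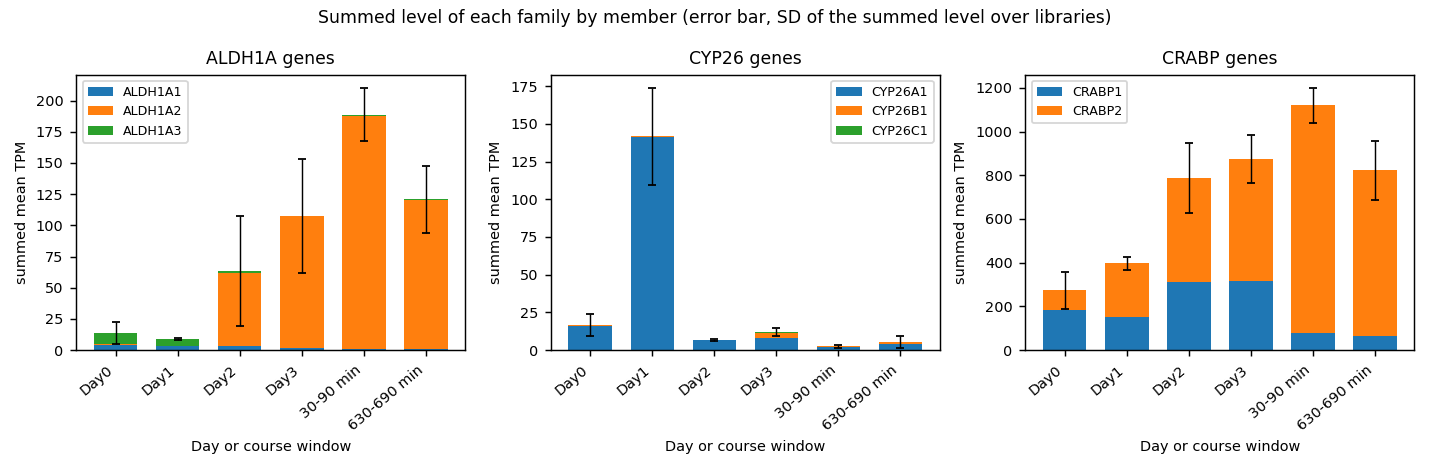
Summed mean TPM (vertical axis, from 0) of the ALDH1A, CYP26 and CRABP genes, stacked by gene, on each day and in the first and last windows of the course (horizontal axis); error bars are the SD of the summed level over 3 libraries a day or 6 a window. The ALDH1A bar is nearly all ALDH1A2 from Day2 on, and the CYP26 bar is tallest at Day1, at 142 TPM.

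By step, 2 of the 9 members tested were called higher and 0 lower at Day1 against Day0, where 5.18% of all genes were called (2.72% higher, 2.46% lower). At Day2 against Day1 the counts were 3 and 1, beside 11.7% of all genes (3.58% higher, 8.16% lower), and at Day3 against Day2 they were 2 and 1, beside 13.1% (9.03% higher, 4.03% lower). Across longer gaps, 3 members were higher and 1 lower at Day2 against Day0, where 19.7% of all genes were called (8.3% and 11.4%). At Day3 against Day0 there were 4 and 2, beside 14.2% (7.07% and 7.09%), and at Day3 against Day1 there were 3 and 2, beside 13.8% (7.13% and 6.64%). The median log2 change of the 9 was -0.16, 0.32 and -0.01 in the 3 successive steps, beside -0.01, -0.04 and 0.08 over all genes. These comparisons share libraries, so the counts are not independent of each other.

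**Figure D3:**
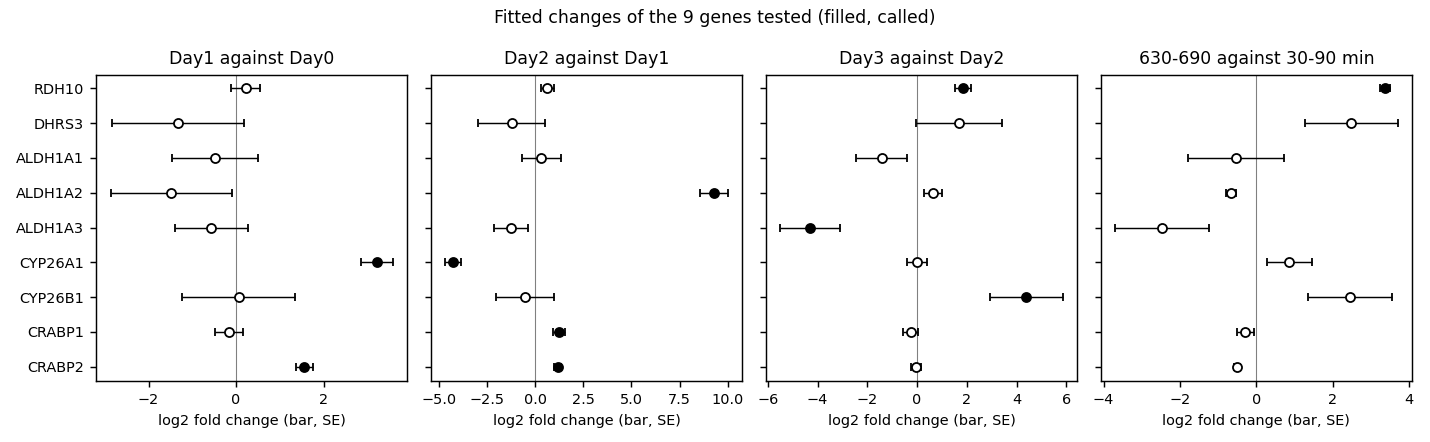
Fitted log2 fold change (horizontal axis, its own scale in each panel) with its approximate SE for the 9 members tested, in the 3 steps between days and between the last and first course windows; filled points were called. ALDH1A2 has the largest change, at 9.30 from Day1 to Day2, and RDH10 is the filled point of the course panel.

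The time course gives the members at finer steps, in libraries labelled presomitic mesoderm. The 6 somite markers summed to 8.73 to 20.4 CPM at 30 to 90 min and 731 to 932 CPM at 630 to 690 min. At Day3 they summed to 558 to 696 CPM. The 6 presomitic markers summed to 1149 to 1311 CPM at 30 to 90 min and 712 to 858 CPM at 630 to 690 min. HES7, 1 of them, was at 9.15 to 21.2 and 1.39 to 3.70 CPM. The later libraries thus cannot be taken as presomitic cells alone. Set beside Day2, and untested because the 2 series are labelled as different samplings, the 6 libraries of 30 to 90 min held more ALDH1A2 (238 to 317 against 48.7 to 157 CPM) and CRABP2 (457 to 563 against 193 to 270 CPM), and less CRABP1 (14.96 to 49.7 against 85.8 to 147 CPM) and CYP26A1 (0.677 to 3.19 against 5.56 to 7.28 CPM). None of these ranges overlapped. The RDH10 ranges overlapped, at 10.6 to 26.2 and 22.1 to 45.3 CPM.

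**Figure D4:**
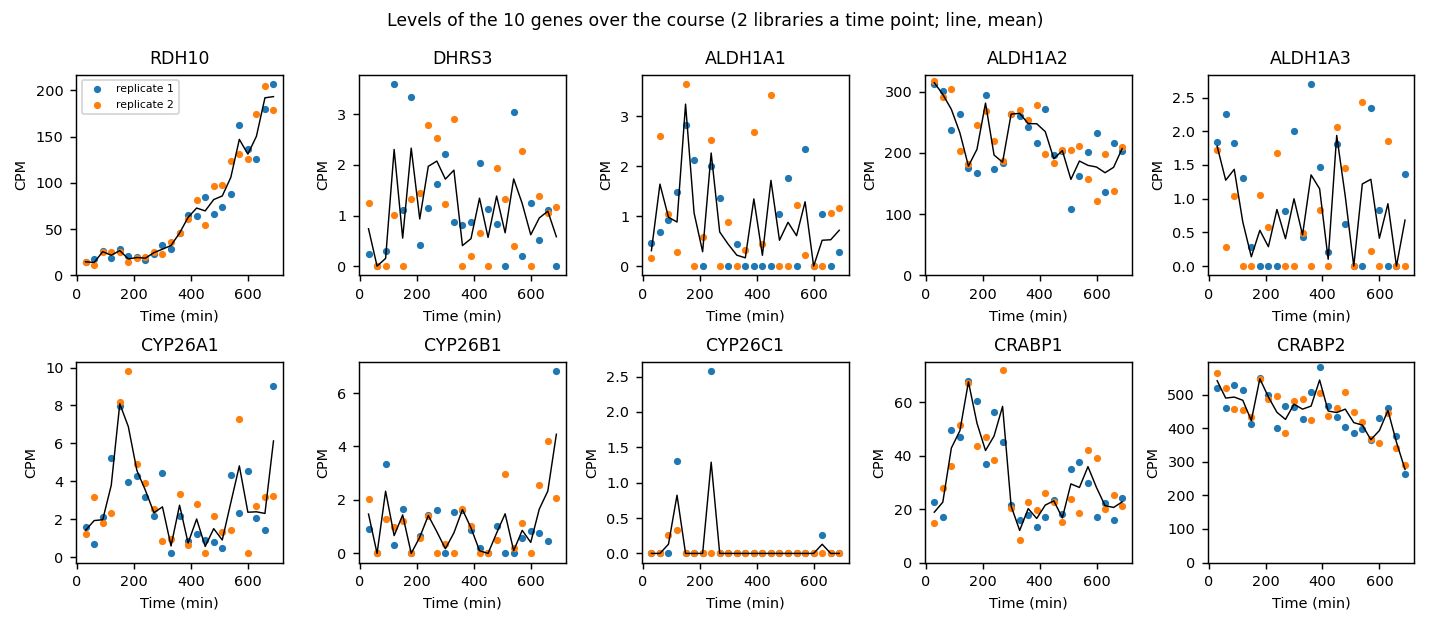
Level in CPM (vertical axis, linear, its own scale in each panel) of each of the 10 genes from 30 to 690 min (horizontal axis); colours mark the 2 replicate libraries, the line their mean. RDH10 climbs after about 300 min, ALDH1A2 and CRABP2 end lower than they begin, and CRABP1 steps down between 270 and 300 min.

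RDH10 was the member with the largest change. In the 6 libraries of 30, 60 and 90 min its lowest, median and highest levels were 10.6, 15.9 and 26.2 CPM, in those of 330 to 390 min 28.7, 45.6 and 64.7 CPM, and in those of 630 to 690 min 126, 179 and 207 CPM. The 3 windows did not overlap, and all 24 libraries from 360 min on (at least 45.2 CPM) lay above all 22 earlier ones (at most 35.6 CPM). RDH10 rose 2.65-fold to the middle window (log2 1.40, SE 0.14, adjusted p = 3.11e-11), 3.90-fold from there to the last (log2 1.96, SE 0.13, adjusted p = 2.91e-16) and 10.3-fold in all (log2 3.37, SE 0.14, adjusted p = 1.19e-24). The summed level of the 6 somite markers went from 8.73 to 20.4 CPM in the first window to 731 to 932 CPM in the last, with UNCX at 0 in all first-window libraries and MEOX2 at 0 in all last-window ones. The part of somite cells in the RDH10 values was not tested. RDH10 was the 1 member called in each of the 3 window comparisons, where 5.76%, 3.46% and 9.45% of 13653 genes were called, in that order.

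ALDH1A2 and CRABP2 ended lower, by less than the limit of 1. ALDH1A2 had a lowest, median and highest level of 238, 303 and 317 CPM in the first window, 217, 256 and 278 CPM in the middle one and 137, 201 and 215 CPM in the last. The last window lay below both others, and the change from first to last passed on p alone (log2 -0.67, SE 0.12, adjusted p = 3.02e-05), where 25.2% of genes did. Between them ALDH1A2 did not run evenly: at 150 min it was at 175 and 182 CPM, at 210 min 294 and 269 CPM, and at 270 min 183 and 186 CPM. No step of ALDH1A2 between neighbouring times was called, nor was a 300 min rhythm (adjusted p = 0.249 in edgeR).

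CRABP2 had 457, 520 and 563 CPM in the first window, 423, 495 and 581 CPM in the middle one and 264, 358 and 459 CPM in the last. The middle window overlapped both others, and the highest library of the last window lay just above the lowest of the first (459 against 457 CPM). CRABP2 fell by 0.50 on the log2 scale from first to last (SE 0.08, adjusted p = 2.07e-06) and by 0.46 from middle to last (SE 0.08, adjusted p = 3.72e-05), where 11.1% of genes passed on p alone. Without all replicate 2 libraries neither passed (adjusted p = 0.141 and 0.178), and without all replicate 1 libraries the second did not (0.133). Those fits held only the window libraries left, with the time points of a window as its replicates, so the model changed as well.

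For ALDH1A2 the change from middle to last was -0.47 (SE 0.12, adjusted p = 0.00641). It did not pass without all replicate 2 libraries, in a fit of the windows alone (0.194), or without 660 min replicate 2 (0.0595). Nor did it pass with limma on log2(TPM + 1) or log2(TPM + 0.1) (0.0564 and 0.0620), or with the covariate of POTEE and FLJ44635 (given with CRABP1) (0.0724). The change of ALDH1A2 from first to last passed in all of these.

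Per length, RDH10 came close to ALDH1A2 by the last window. The means were 187 ± 21.8 TPM for ALDH1A2 and 9.60 ± 3.22 TPM for RDH10 in the first window, and 120 ± 26.9 and 99.0 ± 18.7 TPM in the last (SD, n = 6). In the last window these 2 do not differ beyond their spread.

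CRABP1 changed most abruptly. It had 14.96, 25.4 and 49.7 CPM as the lowest, median and highest level of the first window, 36.2, 48.5 and 72.0 CPM in the 14 libraries of 90 to 270 min, and 8.27, 19.0 and 26.0 CPM in the 14 libraries of 300 to 480 min. The last 2 sets, which meet where the level dropped and are not tested windows, did not overlap. Later the replicates differed, with 37.8 and 18.5 CPM at 540 min, 29.7 and 42.2 CPM at 570 min and 17.1 and 39.1 CPM at 600 min. The higher of each pair lay within the range of 90 to 270 min. The last window ran from 15.97 to 25.3 CPM. At 270 min the libraries had 45.0 and 72.0 CPM and at 300 min 21.7 and 20.6 CPM. This fall of 2 libraries against 2 was called (log2 -1.54, SE 0.37, adjusted p = 0.0143 in edgeR). The comparison was added after the drop was seen. Its p was adjusted over genes within the step and not over the 22 steps, and no other setting was run for it. CRABP1 was the 1 member among the 125 genes called in that step (0.916% of those tested, 37 higher and 88 lower), while the other 21 steps between neighbouring times had 0 to 17 calls each.

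Part of the neural marker list stepped at the same time. Of its 9 genes, 6 had both 300 min libraries below both 270 min libraries (PAX6, SOX1, SOX3, NEUROG2, STMN2 and ELAVL3), TUBB3 overlapped, and NES was higher at 300 min, at 2280 and 2765 against 1600 and 1055 CPM. STMN2, a neuronal microtubule gene, was at 170 and 261 CPM at 270 min and at 63.5 and 94.9 CPM at 300 min, and SOX2, listed here as a stem cell marker and also a neural gene, went from 46.3 and 61.4 to 14.2 and 22.9 CPM. The other 7 genes of the list without NES summed to 238 and 283 CPM at 270 min and 271 and 229 CPM at 300 min, and so overlapped. Over 90 to 270 min STMN2 ran from 113 to 306 CPM and PAX6 from 7.67 to 32.9 CPM, and over 300 to 480 min from 57.6 to 138 and from 2.65 to 16.4 CPM. With NES the sum of the list had a median of 1923 CPM over 120 to 270 min and 3302 CPM over 300 to 480 min. The part of neural cells in the CRABP1 values was not tested.

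POTEE and FLJ44635, the genes nearest to CRABP1 in pattern over the 23 time point means (r = 0.957 and 0.939), stepped with it as well, POTEE from 100 and 134 CPM to 26.2 and 46.0 CPM. Both are near-identical to abundant transcripts elsewhere in the genome, so their counts are uncertain and depend on how shared reads were assigned. With the log2 of their summed CPM as a covariate, a fit added after this was seen, CRABP1 no longer passed the test over the course (edgeR, adjusted p = 0.825, against 2.64e-07 without it); both genes were picked for their likeness to CRABP1, so this describes the shared pattern and tests no source of it. ALDH1A2, CRABP2 and RDH10 still passed (adjusted p = 1.13e-05, 2.54e-05 and 5.91e-23).

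**Figure D5:**
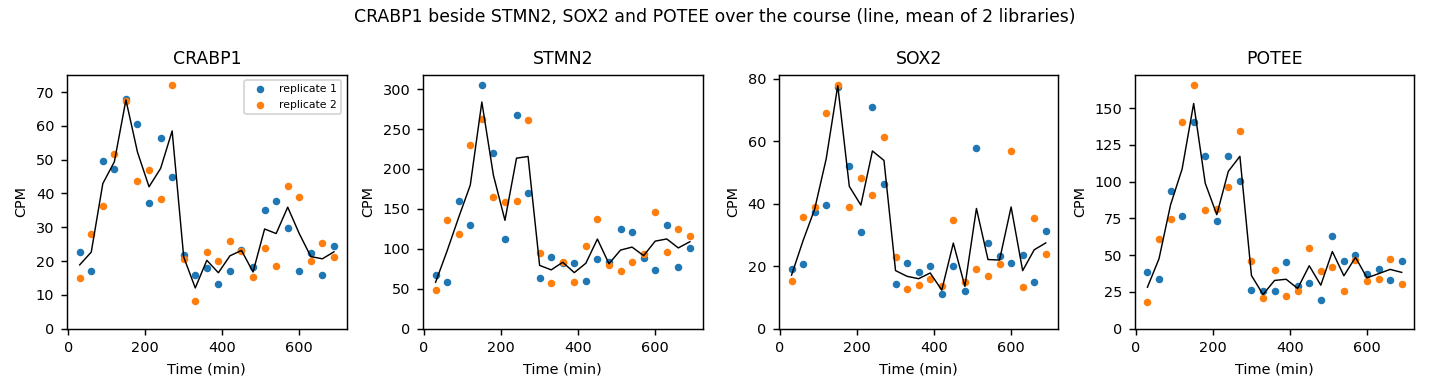
Level in CPM (vertical axis, from 0) of CRABP1, STMN2, SOX2 and POTEE from 30 to 690 min (horizontal axis); colours mark the 2 replicate libraries, the line their mean. All 4 step down between 270 and 300 min, CRABP1 from 45.0 and 72.0 to 21.7 and 20.6 CPM.

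CYP26A1 stayed at or below 9.82 CPM. Its highest early levels were at 150 min, at 7.98 and 8.19 CPM, and at 180 min, at 3.95 and 9.82 CPM, against 0.677 to 3.19 CPM in the first window and 0.213 to 3.32 CPM in the middle one. It did not pass the edgeR test over the course (adjusted p = 0.0694), and the range over 26 other settings was 0.00104 to 0.454. The last window had 1.45, 2.94 and 9.01 CPM as its lowest, median and highest level.

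The other members were near the floor. CYP26B1 ranged from 0 to 3.35 CPM in the first window and 0.447 to 6.83 CPM in the last (adjusted p = 0.0991), ALDH1A3 from 0.290 to 2.26 and 0 to 1.85 CPM, ALDH1A1 from 0.156 to 2.60 and 0 to 1.16 CPM, and DHRS3 from 0 to 1.25 and 0 to 1.39 CPM. CYP26C1 had 16 counts over all 46 libraries, 14 of them between 120 and 270 min. Changes in these genes of the size of their spread were not detectable at this depth.

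Over the 23 time points 4 of 9 members differed (ALDH1A2, CRABP1, CRABP2 and RDH10), where 28.9% of genes did. A 300 min rhythm was called for 1 member, CRABP1 (adjusted p = 0.0352), among 18 of 13653 genes (0.132%). HES7, an oscillating gene of the segmentation clock, was not called by this test (adjusted p = 0.406). The CRABP1 call was lost in 7 of 13 other settings, among them leaving out either set of replicates (adjusted p = 1.000 and 0.102), a period of 270 min (0.659) and the covariate of POTEE and FLJ44635 (0.998).

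Genes earlier and later in the pathway were taken by role. Of 18 listed genes for retinol uptake, storage and oxidation, 11 were tested over the days and 4 differed, beside 43.6% of all genes. LRAT, which stores retinol as esters, fell from 51.1 to 283 CPM at Day0 to 4.71 to 8.85 CPM at Day1 (log2 -4.22, SE 0.73, adjusted p = 0.0015), a call lost with limma on log2(TPM + 0.1) (0.0842). By step the list had 1 higher and 1 lower at Day1, 2 and 0 at Day2, and 0 and 2 at Day3. In the course 3 of 13 differed, beside 28.9% of all genes, among them DHRS4, a retinal reductase (edgeR, adjusted p = 0.000593), and none was called between windows.

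FABP5, which can also carry retinoic acid to the nucleus, was the 1 tested of 2 further carriers. It rose to Day1 (from 161 to 170 CPM to 335 to 405 CPM; log2 1.23, SE 0.28, adjusted p = 0.0117) and fell to Day3 (108 to 180 CPM; log2 -1.11 against Day2, SE 0.28, adjusted p = 0.0105). The FABP5 call at Day1 was lost without Day0 replicate 2 (adjusted p = 0.0538) and with limma on log2(TPM + 0.1) (0.0632), and that at Day3 without Day2 replicate 1 (log2 -0.68) or Day3 replicate 1 (log2 -0.98) and with limma on either scale (log2 -0.73). It differed over the course too (adjusted p = 5.19e-06), with 384 to 486 CPM in the first window and 202 to 283 CPM in the last.

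Of the 6 receptor genes 3 differed over the days, beside the same 43.6%. RXRA was at 7.91 to 14.5 CPM at Day2 and 30.4 to 42.8 CPM at Day3 (log2 1.28, SE 0.31, adjusted p = 0.00899). RARB, a receptor gene that retinoic acid induces, was at 0 to 1.05 CPM at Day0 and 5.001 to 7.90 CPM at Day2 (log2 3.98, SE 1.10, adjusted p = 0.0117), a call lost without Day0 replicate 2 (0.0579). In the steps, 0 were called at Day1 and at Day2, and 1 higher at Day3. In the course RXRG was the 1 called, from 7.93 to 19.5 CPM in the first window to 1.09 to 4.06 CPM in the last (log2 -2.11, SE 0.42, adjusted p = 0.00011).

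Of 18 genes known to respond to retinoic acid, 12 were tested over the days, of which 3 rose and 0 fell at Day1, 6 and 1 at Day2, and 1 and 2 at Day3, where 5.18%, 11.7% and 13.1% of all genes were called. CDX1, a caudal homeobox gene, had 0 counts at Day0 and averaged 32.8 CPM on Day1, 30.9 CPM on Day2 and 0.598 CPM on Day3 (SD 5.22, 9.50 and 1.03, n = 3), falling into Day3 by 5.62 on the log2 scale (SE 0.75, adjusted p = 0.000196). RARRES2, which encodes the secreted protein chemerin, went from 143 to 353 CPM at Day0 to 12.0 to 18.1 CPM at Day2 (log2 -3.71, SE 0.49, adjusted p = 5.75e-05). The agents in the medium changed on the same days, and the part of retinoic acid in the values of these genes was not tested. In the course 14 were tested, with 2 higher and 5 lower in the last window against the first, where 9.45% of all genes were called. CDX1 went from 111 to 168 CPM to 4.02 to 13.4 CPM (log2 -3.95, SE 0.17, adjusted p = 1.56e-23), and the hindbrain gene HOXB1 from 22.6 to 47.7 CPM to 0 to 0.352 CPM (adjusted p = 3.01e-14).

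Genes of like pattern were taken by the Pearson correlation of log2 CPM, among genes at 10 CPM or more on average, as a description of libraries that share days or times. Over the 12 daily libraries ALDH1A2 was nearest to PPP1R9B (r = 0.981), MLLT3 (0.968) and NID2 (0.961), CYP26A1 to YRDC (0.966), GCLM (0.959) and the Wnt inhibitor DKK4 (0.956), and CRABP1 to KIF2C (0.897), SULF1 (0.885) and CADM1 (0.882). DKK4 was at 123 to 171 CPM on Day1 and had no count in any Day2 or Day3 library. Over the 23 time points ALDH1A2 was nearest to MLEC, MMP2 and HIP1 (r = 0.927, 0.927 and 0.922), CYP26A1 to PRPF4B, PSME4 and BTAF1 (0.796, 0.790 and 0.787), and CRABP1, after POTEE and FLJ44635, to TCP1 (0.933).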

How the data were processed

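The 58 libraries were made by LM-seq, an RNA-seq protocol, per the labels. The authors' deposited tables hold expected counts per gene and TPM, TPM being scaled by the authors to the same sum in every library. Reads were aligned with Bowtie 0.12.2, and hg19 and mm8 are named as builds, per the submitters' processing notes. The quantifier, the gene models and whether strand was used were not given in the sources used here. Expected counts split reads shared by near-identical genes by estimate.

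Expected counts were rounded and fitted with edgeR 4.0.16 (R 4.3.3; TMM, filterByExpr, quasi-likelihood), separately for the 12 daily and 46 course libraries, with Benjamini-Hochberg adjustment over 12765 and 13653 genes. The SE was taken from the F statistic and is approximate. Levels are CPM of the plain library total, so ratios of levels differ from fitted folds, which use TMM factors. DESeq2 1.42.0 and limma 3.58.1 were alternatives. Levels, intervals and correlations used numpy 2.4.6, pandas 2.3.3 and scipy 1.17.1. Counting intervals and floors cover counting error only. On simulated counts with 200 genes changed by 1.5 on the log2 scale, 89% were recovered for Day2 against Day1 (12765 genes, 6 false calls). For the end of the course against its start the share was 97.5% (13653 genes, 5 false calls). Changes were put only into genes above a set mean count, and every gene was given the same spread beyond counting error. Neither share can therefore be applied to members near the floor, such as CYP26B1 and DHRS3, or to members with a wider spread.

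The members and all lists were chosen with earlier results of these data known. Beyond the members, at most 2 genes per role were named, those called with the smallest adjusted p (1 such gene is not reported here), and for ALDH1A2, CYP26A1 and CRABP1 the 3 genes of highest correlation at a mean of 10 CPM or more.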

Additional observations from a re-analysis of the deposited data

How the results depend on the processing

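Over 108 results for single members, 2317 values were recomputed under other settings: 2236 kept their side of the call threshold, 58 lost a call and 23 gained one. No called change turned its sign. Among all 1809 log2 values 47 had the other sign, in 18 results that were not called and had an adjusted p of at least 0.403 in edgeR. The number of members called at Day2 against Day1 was 4, and 2 with limma on log2(TPM + 1). Leaving out 1 library at a time gave 2 to 2 members at Day1 against Day0, 3 to 4 at Day2 against Day1, 1 to 3 at Day3 against Day2 (3 with all; 1 without Day3 replicate 3), 2 to 4 at Day2 against Day0 (4 with all; 2 without Day0 replicate 3 or Day2 replicate 2), 4 to 6 at Day3 against Day0, 5 to 6 at Day3 against Day1, 6 to 7 over all days, 1 to 1 in each course window comparison and 4 to 4 over the 23 times. In the course this was run for the 18 libraries of the 3 windows. Each set of replicates was also left out of the window comparisons, in fits of the windows alone, and of the rhythm test. The last course window against the middle one had 1 member, and 2 with DESeq2. The last against the first had 1, and 2 with the covariate of POTEE and FLJ44635. For the 300 min rhythm the 1 member became 0 with limma on log2(TPM + 1) or log2(TPM + 0.1), without replicate 1, without replicate 2, at a period of 270 min, with a linear trend only and with the covariate, and 2 at a period of 330 min. The cause of these changes was not tested.

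Counts over all genes moved by more than 1.5 times in these settings. Day1 against Day0 had 661 calls, 1152 when only the libraries compared were fitted and 437 without Day1 replicate 1. Day2 against Day1 had 1499, and 875 without Day1 replicate 2. Day3 against Day2 had 1668, 1014 with only the libraries compared and 976 without Day3 replicate 3. The last course window against the middle one had 472, and 294 without replicate 2 in a fit of the windows alone. Over the 23 times 3940 differed, and 2589 with the covariate. The rhythm had 18, and 644 with no filter on low counts, 249 with DESeq2, 1 with limma on either scale or without either set of replicates, 2 and 615 at 270 and 330 min, 30 with a linear trend only, 37 without 510 min replicate 1 and 600 min replicate 2, and 3 with the covariate. The covariate and the omission of those 2 libraries were chosen after seeing the data.

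No clear pairing by replicate number was seen, and 3 libraries a day are too few to exclude a weak one. Deviations of same-numbered daily libraries correlated at -0.112 to 0.167 (median 0.0105, against -0.0106 for different numbers), with 3 of 18 above 0.1. Of the 12 libraries, 6 correlated best with their own number. In the course 0 of 506 were above 0.1, and 22 of 46 libraries correlated best with their own number. With a replicate block, CYP26A1 at Day2 against Day0 was -0.999 on the log2 scale, just under the limit of 1 (adjusted p = 0.0306 in edgeR), and the block left 3 members called there.

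Depth limits ALDH1A1, ALDH1A3, CYP26B1, CYP26C1 and DHRS3, which lie within a few counts of 0 in many libraries.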
